A study of Branchiostoma lanceolatum with 6 samples.

Results

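*Cdx*, *Hox3* and *Otp* are 3 homeobox transcription factor genes that the source study used as markers of posterior territories of the amphioxus embryo. They were taken by their gene identifiers in the deposited count table, BLAG06000695 for *Cdx*, BLAG12000125 for *Hox3* and BLAG02001062 for *Otp*, and are 3 of the 27073 genes counted. The table comes from wild-type embryos of *Branchiostoma lanceolatum*, the Mediterranean amphioxus, at the neurula stage, 21 h after fertilization at 19 °C. Embryos were dissociated and pooled, living single cells were sorted into 40 plates of 384 wells, and their transcripts were counted by MARS-seq, a plate-based method that tags each captured mRNA with a unique molecular identifier (UMI). The study grouped the cells into clusters of like transcriptomes, called metacells, and gave each metacell to 1 of 17 cell types. The ectoderm (anterior and posterior epidermis), the neural plate (neural, neural tailbud, hypothalamo-prethalamic and Di-Mesencephalic primordia) and the mesoderm (notochord, non-muscular somites, muscular somites and tailbud) are described below, with the other types beside them.

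*Cdx* is the ParaHox relative of *caudal*, which patterns the posterior end of many animal embryos and acts upstream of posterior Hox genes in vertebrates. *Hox3* belongs to the single amphioxus Hox cluster, whose genes are expressed in nested domains along the anteroposterior axis, and it is a gene of the anterior part of that cluster. *Otp* (*orthopedia*) is a paired-class homeobox gene, best known in vertebrates for the specification of neuroendocrine neurons of the hypothalamus. The tailbud is the growth zone at the posterior end of the embryo, from which notochord, somites and posterior nerve cord elongate.

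The table held 31802996 UMIs in 14586 cells with distinct names, from 138 to 14562 UMIs per cell with a median of 1585. The cells cannot be assigned to the 2 scRNA-seq samples of the series, so they stand as 1 sample with no biological replicate, and plates are technical batches of it. All intervals below are 95% intervals for counting error only, and no p-value was computed from cells. Of the 24 marker genes listed for 7 tissues, 21 had their highest level in the tissue they mark. The exceptions were a *Hey*-related gene, highest in neural-like 2 cells, *Foxc*, highest in muscular somites, and *Gata4/5/6*, highest in epidermal/neural 2 cells. Several of the 24, such as *Nanos*, *Vasa*, *Mnx* and *Foxaa*, had served the study to name these types. For such markers the count restates that naming and is no independent check. Metacells and cell types were made from the same UMIs. *Cdx* and *Otp*, and within the neural plate *Hox3*, were also among the genes used to name posterior groups. For both reasons, differences between groups are given as descriptions without a test.

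Over the whole atlas *Cdx* had 2558 UMIs in 1479 cells, *Hox3* had 1240 UMIs in 677 cells and *Otp* had 1570 UMIs in 656 cells. Most positive cells held a single UMI, which was the case in 62.2% of the cells with *Cdx*, 59.7% of those with *Hox3* and 55.3% of those with *Otp*. The highest count in 1 cell was 15 for *Cdx*, 11 for *Hox3* and 19 for *Otp*. The genes were thus sparsely sampled, and levels are given as summed UMIs of a group per 10,000 UMIs of all genes in that group.

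*Cdx* was highest in both tailbud populations. Its level was 6.11 UMIs per 10,000 in neural tailbud cells (5.55 to 6.70, 443 UMIs in 211 cells) and 4.53 in tailbud cells (4.00 to 5.12, 259 UMIs in 279 cells), and these intervals did not overlap. Posterior epidermis followed at 1.14 (1.07 to 1.21, 1089 UMIs in 6546 cells), whose interval overlapped that of the epidermal/neural 1 cells at 0.978 (0.765 to 1.23). Notochord was at 0.729 (0.561 to 0.930) and neural cells at 0.673 (0.587 to 0.768), again overlapping. Anterior epidermis was at 0.296 (0.262 to 0.334), next to endoderm at 0.311 (0.242 to 0.393), and the somites lay lower, non-muscular at 0.175 (0.126 to 0.237) and muscular at 0.0851 (0.0276 to 0.199). No UMI of *Cdx* was found in the 223 cells of the endostyle and club-shaped gland, which allows a level of up to 0.0555 UMIs per 10,000. Since posterior epidermis holds 44.9% of all cells, 42.6% of the *Cdx* UMIs of the atlas came from it, against 17.3% from neural tailbud and 10.1% from tailbud.

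*Hox3* had a different order, in which the axial and paraxial mesoderm stood beside both tailbud populations. Neural tailbud was first at 1.97 UMIs per 10,000 (1.66 to 2.32), followed by tailbud at 1.56 (1.25 to 1.92), muscular somites at 1.46 (1.17 to 1.81), notochord at 1.41 (1.17 to 1.68) and non-muscular somites at 1.34 (1.2 to 1.5). Each of these intervals overlapped the next, so neighbours in this order are not resolved, although that of neural tailbud lay above that of non-muscular somites. The interval of neural cells, at 0.783 (0.690 to 0.885), lay below all of them. Posterior epidermis was at 0.120 (0.0992 to 0.144) and anterior epidermis at 0.0323 (0.0216 to 0.0464), and no UMI was found in the 38 Di-Mesencephalic cells, where the limit is 0.275. Mesoderm as a whole, with 10.5% of the cells, contributed 50.1% of the *Hox3* UMIs.

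*Otp* was concentrated in the tailbud. Its level there was 11.01 UMIs per 10,000 (10.2 to 11.9, 629 UMIs), and 40.1% of all its UMIs came from this type, which holds 1.91% of the cells. Neural tailbud followed at 2.61 (2.25 to 3.0) and non-muscular somites at 1.35 (1.21 to 1.51), and none of these 3 intervals overlapped. Every other type with at least 5 UMIs was below 0.85. The hypothalamo-prethalamic primordium, the territory in which the vertebrate gene would be looked for, was at 0.117 (0.0471 to 0.241, 7 UMIs in 245 cells), close to neural cells at 0.135 (0.0978 to 0.181) and to endoderm at 0.133 (0.0898 to 0.190).

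**Figure D1:**
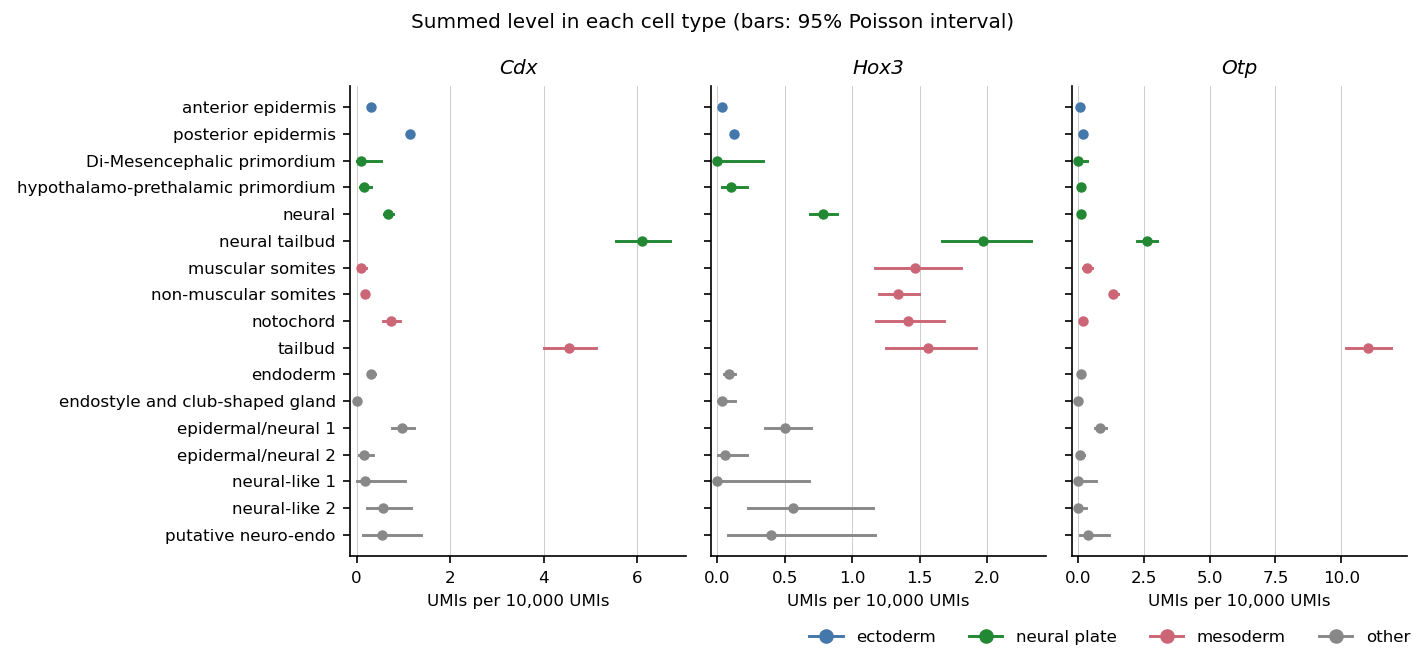
Summed level of each gene (x axis, UMIs per 10,000 UMIs, linear and scaled per panel) in the 17 cell types (y axis), with 95% Poisson intervals as bars and colours for germ layers. *Cdx* peaks in neural tailbud (6.11) and tailbud (4.53), *Hox3* is spread from 1.34 to 1.97 over both tailbud types, somites and notochord, and *Otp* peaks in tailbud (11.01).

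The label "posterior" was read against these levels, with the limit that *Cdx* and *Otp*, and *Hox3* within the neural plate, had helped to name posterior groups. *Otp* had 40.1% of its UMIs in the tailbud, *Cdx* extended into the posterior epidermis, and the *Hox3* intervals of somites and notochord overlapped that of the tailbud.

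Shares of cells with a UMI at equal depth kept the order of the leading types for *Cdx* and *Otp*, while *Hox3* was less resolved. When 500 UMIs were drawn from every cell, which leaves out the 904 shallower cells, *Cdx* was detected in 26.1% of neural tailbud cells (20.3 to 32.5), 14.3% of tailbud cells (10.4 to 19.1) and 5.15% of posterior epidermal cells (4.61 to 5.74). Anterior epidermis was at 0.868% (0.573 to 1.26), and no *Cdx* was seen in the 222 endostyle and club-shaped gland cells that remained. Without thinning these shares were 64.5%, 36.6%, 11.5% and 5.71%, at median depths of 3352, 1638, 1246 and 2061 UMIs per cell, so the posterior epidermal cells showed *Cdx* more often while being the shallower ones. *Otp* was detected in 32.7% of thinned tailbud cells (27.2 to 38.6), 9.48% of neural tailbud cells (5.89 to 14.3) and 6.29% of non-muscular somite cells (4.55 to 8.43), against 0.354% in anterior epidermis (0.177 to 0.632). At this depth the *Otp* intervals of neural tailbud and non-muscular somites overlapped. Unthinned, the *Otp* shares of tailbud, neural tailbud, non-muscular somites and anterior epidermis were 63.1%, 28.4%, 19.2% and 1.91%. That of the endostyle and club-shaped gland, at a median depth of 1833 UMIs, was 0.448%. *Hox3* was detected in 9.48% of thinned neural tailbud cells, 7.72% of tailbud cells (4.84 to 11.6), 6.6% of non-muscular somite cells (4.81 to 8.78) and 6.37% of notochord cells (4.12 to 9.32), against 0.161% in anterior epidermis (0.0522 to 0.375). Thinned muscular somite cells were at 5.59% (2.71 to 10.03) and neural cells at 4.62% (3.51 to 5.95). Unlike in the levels, the neural interval overlapped those of the mesodermal types and of neural tailbud (5.89 to 14.3). The interval of neural tailbud also overlapped that of non-muscular somites. Unthinned, the *Hox3* shares of neural tailbud, tailbud, non-muscular somites, notochord and anterior epidermis were 32.2%, 18.3%, 22.7%, 15.4% and 0.815%. The endostyle and club-shaped gland had 0.897% (0.109 to 3.2, 2 of 223 cells). In posterior epidermis the unthinned share was 1.45% (1.18 to 1.77), inside that interval. Thinned, it was 0.65% (0.463 to 0.888), against 0 in the endostyle and club-shaped gland (0 to 1.65). The part of free RNA in these low shares was not tested.

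Each posterior group was then set against the rest of its germ layer, a fold of at least 2 being counted as higher or lower among genes with at least 20 UMIs over both groups. Between posterior and anterior epidermis all 3 genes were higher, as were 10.9% of the 16001 genes compared. *Cdx* was 3.84-fold higher (3.36 to 4.41), *Hox3* 3.72-fold (2.46 to 5.80, from 115 against 29 UMIs) and *Otp* 2.44-fold (1.83 to 3.28). The *Otp* fold was 1.69 when each cell counted equally and 1.84 (1.36 to 2.51) without metacell 106, the posterior metacell with most of its UMIs, so that it was no longer past 2. The *Hox3* fold rests on an anterior level no higher than that of the endostyle and club-shaped gland. Between neural tailbud and the other neural plate types all 3 were again higher, as were 8.33% of 10410 genes. *Otp* was 20.3-fold higher (14.8 to 28.3, rank 2 of all genes compared), *Cdx* was 10.5-fold higher (8.95 to 12.4, rank 8), and *Hox3* was 2.99-fold higher (2.42 to 3.68, rank 235). Without the metacell that held most UMIs of the gene, the *Otp* fold was 5.97 (3.54 to 9.81), the *Cdx* fold 4.53 (3.56 to 5.73) and the *Hox3* fold 0.952 (0.605 to 1.44), so that the *Hox3* call rests on metacell 51. Between tailbud and the other mesoderm 2 of the 3 were higher, as were 15.4% of 10107 genes. *Cdx* was 15.8-fold higher (12.6 to 19.9, rank 9) and *Otp* 11.8-fold higher (10.3 to 13.4, rank 18), whereas *Hox3* was 1.13-fold higher (0.894 to 1.42, rank 4985), a value that turned to 0.847 when each cell counted equally and to 0.804 (0.577 to 1.09) without metacell 32. Without metacell 31 the *Cdx* fold was 8.99 (6.77 to 11.9).

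A list of 11 posterior genes, chosen with earlier results of these data known and in part used to name these groups, was read in the same comparisons. Between neural tailbud and the other neural plate types the median fold of the list was 4.73 against 1.02 over all genes compared. Of the 11, 8 were higher and none lower, beside 8.33% and 8.59% of all genes. The 8 included *Wnt1*, which encodes a secreted Wnt ligand, at 15.4-fold (12.3 to 19.4). They also included *Vasa*, an RNA helicase gene of the germline, at 5.46-fold (4.94 to 6.04). Between tailbud and the other mesoderm 8 were higher and 1, *Bicc*, was lower at 0.457 (0.307 to 0.657), beside 15.4% and 10.3% of all genes. The median was 3.58 against 1.13. *Noto*, a homeobox gene of the early notochord in vertebrates, was the highest of the list at 30.6-fold (21.2 to 45.2). Between posterior and anterior epidermis 4 of the 11 were higher and none lower, beside 10.9% and 3.91% of all genes. The median was 1.67 against 1.06, so the folds of *Cdx* and *Hox3* there were above those of most of the list.

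Most of the 8 genes of an anterior list were lower in posterior epidermis and neural tailbud, and 4 of them, *Arpd2*, *Fgfrl*, *Fzd5/8* and *Pax4/6*, served to name the anterior epidermis, so their epidermal counts restate that naming. In epidermis 6 of 8 were lower, beside 3.91% of all genes, with a median fold of 0.325, while the head transcription factor genes *Otx*, at 0.640 (0.531 to 0.769), and *Fezf*, at 0.866 (0.573 to 1.31), were not past a fold of 2. In the neural plate all 7 genes with enough UMIs were lower, beside 8.59% of all genes, with a median of 0.119. *Six3/6*, with 2 against 33 UMIs, had an interval that included 1 (0.0386 to 1.30). All of these but *Fzd5/8* had served the study to name the hypothalamo-prethalamic or Di-Mesencephalic primordium. Both primordia belong to the comparison group, so this count largely restates that naming too. In mesoderm 4 of 7 were lower, beside 10.3% of all genes, with a median of 0.472, and *Otx* was at 1.06 (0.584 to 1.81). That median was the fold of *Six3/6*, 1 of the 4. With 3 against 43 UMIs, its interval again included 1 (0.0936 to 1.47).

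The 4 genes linked to Hox function did not share one behaviour. In the posterior epidermis 2 were higher, an *EVX2*-named gene, a homeobox gene that in vertebrates flanks a Hox cluster, at 4.05-fold (3.28 to 5.05), and a *GBX1*-named gene at 2.15-fold (1.99 to 2.32). The *RARB*-named gene, after a vertebrate retinoic acid receptor, was lower there at 0.455 (0.397 to 0.521). Of all genes compared there, 10.9% were higher and 3.91% lower. In neural tailbud and tailbud only the *EVX2*-named gene was higher, at 2.94-fold (1.67 to 5.05) and 6.76-fold (3.39 to 13.5), and none of the 4 was lower, beside 8.33% and 15.4% of all genes higher and 8.59% and 10.3% lower, so that these counts do not set the list apart.

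**Figure D2:**
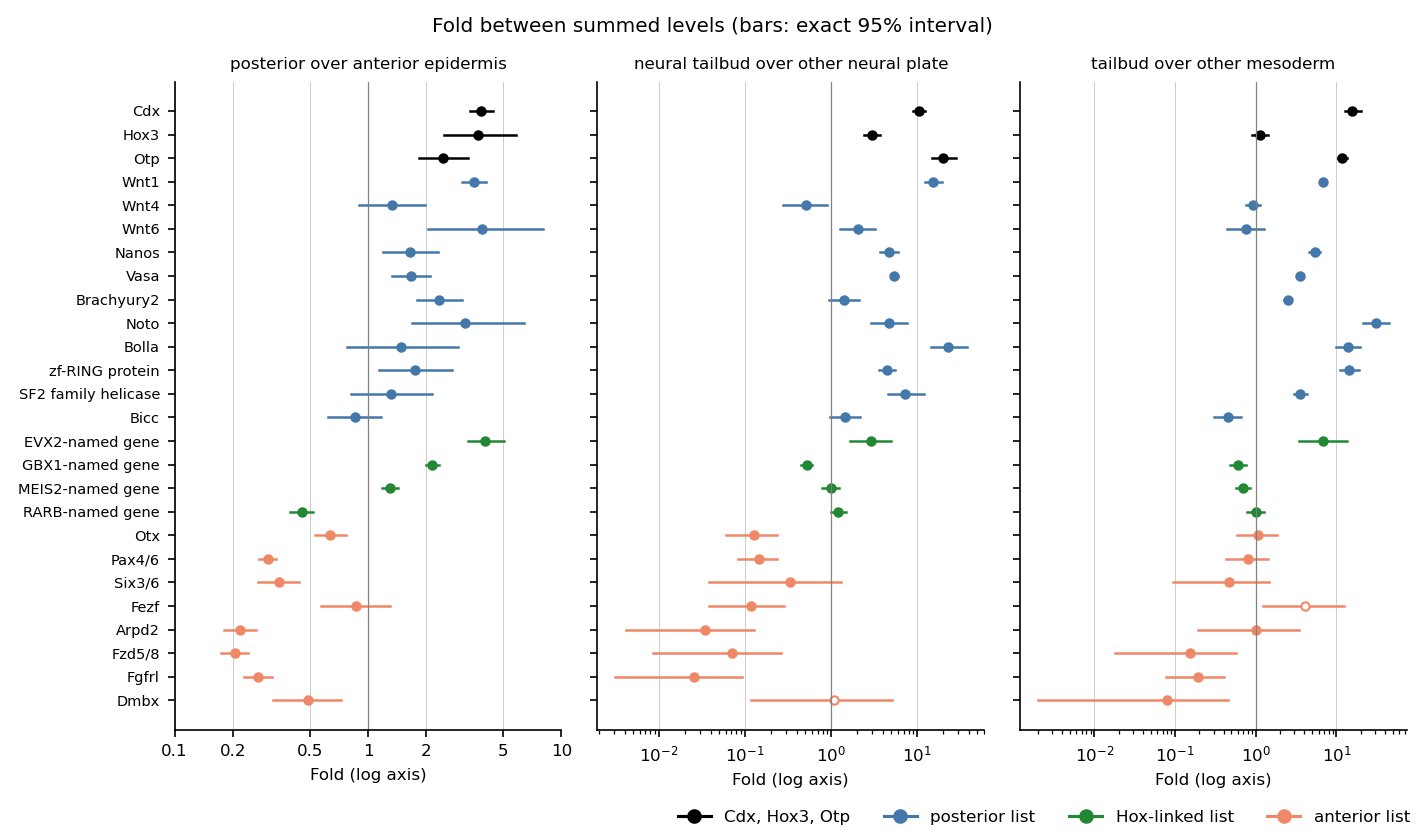
Fold between summed levels (x axis, log scale, ranges differ between panels) for *Cdx*, *Hox3* and *Otp* and for the posterior, Hox-linked and anterior gene lists in the 3 comparisons, with exact 95% intervals as bars and open points for genes with under 20 UMIs. All 3 genes lie right of 1 in epidermis and neural plate, and in mesoderm *Hox3* lies at 1.13 while *Cdx* and *Otp* lie at 15.8 and 11.8.

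Plates gave a spread for the best sampled of these values. *Cdx* was higher in posterior than in anterior epidermis on all 40 plates, with a plate median of 1.16 UMIs per 10,000 (0.266 to 2.85) against 0.259 (0 to 0.759). *Hox3* was higher in posterior epidermis on 30 of the 33 plates with a UMI and *Otp* on 27 of 37. *Otp* was higher in tailbud than in other mesoderm on 38 of 39 plates and *Cdx* on 35 of 38, although a plate held only 1 to 17 tailbud cells. *Hox3* was higher in tailbud on 21 plates and lower on 19. In neural tailbud, present on 35 plates, *Cdx* was higher than in the other neural plate on 31, *Otp* on 22 of 30 plates with a UMI and *Hox3* on 18 of 32.

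The epidermis held a wide range of *Cdx*. Over the 82 metacells of posterior epidermis the level ran from 0 to 5.07 UMIs per 10,000 with a median of 0.893, and the intervals of 17 metacells lay above the level of the whole type and those of 20 below it. The highest were metacell 137 at 5.07 (2.32 to 9.63, 9 UMIs), metacell 105 at 4.02 (2.52 to 6.08, 22 UMIs) and metacell 120 at 3.12 (2.15 to 4.39, 33 UMIs). At the other end, 12 posterior metacells were below the level of the anterior type. Of the 37 anterior metacells 2 exceeded the level of the posterior type, metacell 66 at 1.76 (52 UMIs) and metacell 77 at 1.59 (7 UMIs). Metacell 66 also had *Wnt1* at 3.17 and *Pax4/6*, an anterior eye and head gene, at 0.236, where the levels were 0.276 and 1.85 in the anterior type and 0.977 and 0.561 in the posterior type, so in these genes it was nearer to the posterior type.

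Across the 82 posterior metacells *Cdx* went with the *EVX2*-named gene (Pearson r = 0.71, Spearman rho = 0.73) more closely than with *Wnt1* (0.43 and 0.56), and it was inversely related to *Pax4/6* (-0.42 and -0.41). Across the 37 anterior metacells the values were 0.57 and 0.49 with the *EVX2*-named gene, 0.67 and 0.28 with *Wnt1* and -0.37 and -0.46 with *Pax4/6*, so the Pearson order of the first pair was the opposite there. These are descriptions across metacells that share plates and were built from the same UMIs, and *Cdx* itself had a Spearman rho of 0.06 with the total UMIs of the posterior metacells. *Hox3* had at most 5 UMIs in any posterior metacell, too few to rank them. *Otp* was uneven there, since metacell 106 alone held 46 of the 174 UMIs of posterior epidermis, at 1.81 UMIs per 10,000 (1.33 to 2.42) in 23 of its 105 cells. The same metacell had *Wnt1* at 6.23 and *Cdx* at 1.97, while *Vasa*, at 13.8 in the tailbud, was at 0.512 and *Nanos*, at 5.15 in the tailbud, was at 0.276.

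**Figure D3:**
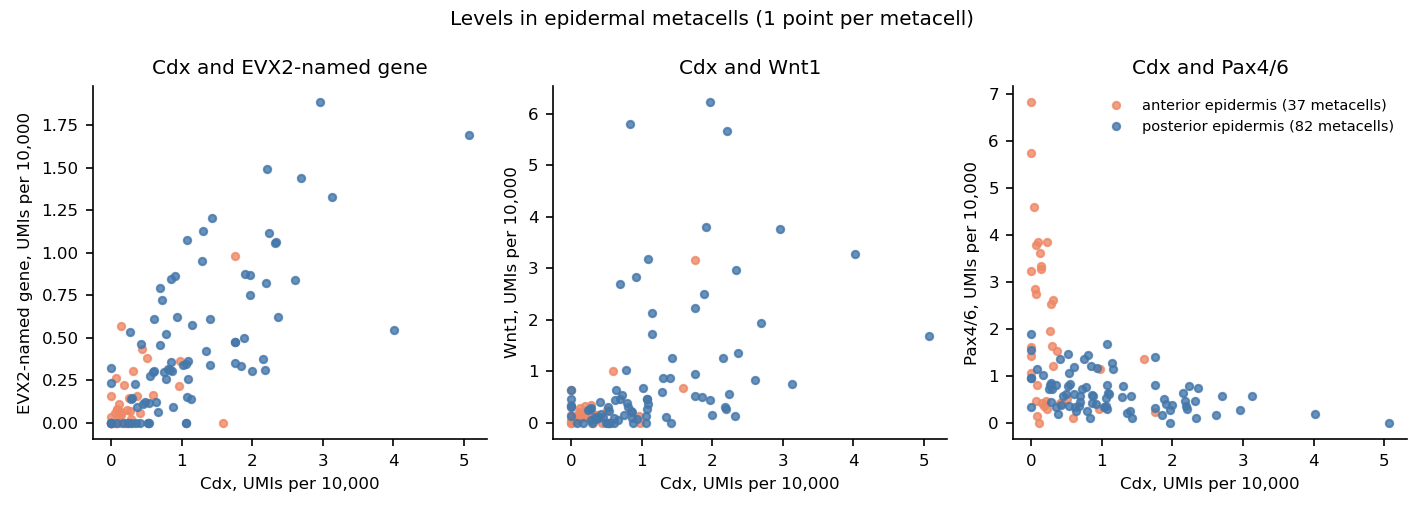
Level of *Cdx* (x axis) against the *EVX2*-named gene, *Wnt1* and *Pax4/6* (y axes), all in UMIs per 10,000 UMIs, with 1 point per metacell of anterior (37) and posterior (82) epidermis. The *EVX2*-named gene is high where *Cdx* is high, and metacells with *Pax4/6* above 2 all have *Cdx* below 0.5.

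Both metacells of the neural tailbud type carried the 3 genes in opposite proportions. Metacell 51 had *Cdx* at 10.3 UMIs per 10,000 (9.27 to 11.5), *Hox3* at 3.61 (2.99 to 4.32) and *Otp* at 0.765 (0.495 to 1.13). Metacell 52 had *Cdx* at 2.63 (2.15 to 3.19), *Hox3* at 0.627 (0.406 to 0.926) and *Otp* at 4.11 (3.51 to 4.79). From metacell 51 to 52, therefore, *Cdx* was 3.93 times (3.15 to 4.94) and *Hox3* 5.76 times (3.72 to 9.26) as high in the first, and *Otp* 0.186 times (0.117 to 0.284). The same ratios on odd-numbered plates were 4.58, 6.41 and 0.190, and on even-numbered plates 3.22, 5.33 and 0.181. Metacell 51 was the shallower, with median UMIs of 2845.5 against 3552 per cell, and the part of depth in these ratios was not tested.

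Other genes divided the same pair of metacells. The neural transcription factor gene *Soxb1c* was at 6.92 in metacell 51 and 0.803 in metacell 52, a ratio of 8.62 (5.93 to 12.9), and the *EVX2*- and *GBX1*-named genes were 7.73 and 4.85 times as high in 51. *Wnt1*, at 1.38 against 6.42, and *Bolla*, at 0.704 against 1.83, were higher in 52, while *Vasa* was alike at 10.5 and 11.1, a ratio of 0.947 (0.820 to 1.09). *Nanos* and the zf-RING protein gene were higher in metacell 51, by 1.65 times (1.13 to 2.42) and 1.78 times (1.29 to 2.47), so the tailbud markers did not divide the pair in one direction. Of the 4 neural markers 3 were lower in metacell 52, and *Neurogenin*, a proneural gene, had 2 and 3 UMIs in the pair. Some genes listed as markers of other tissues were lower in metacell 52 as well. Epidermal *Dlx* was at 4.93 in metacell 51 against 0.828 and *Klf1/2/4* at 0.949 against 0.301. *Snail* was at 2.97 against 1.30. It was listed as a somite marker, but the study also used it for the neural plate border. The epidermal markers *Tfap2*, with 8 and 3 UMIs, and *Grhl*, with 3 and 2, were too sparse to rank. The levels of all 3 genes quoted for the neural tailbud type as a whole are averages over these unlike metacells. *Hox3* in metacell 52, at 0.627, was not above the other neural plate at 0.659 (0.581 to 0.744).

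**Figure D4:**
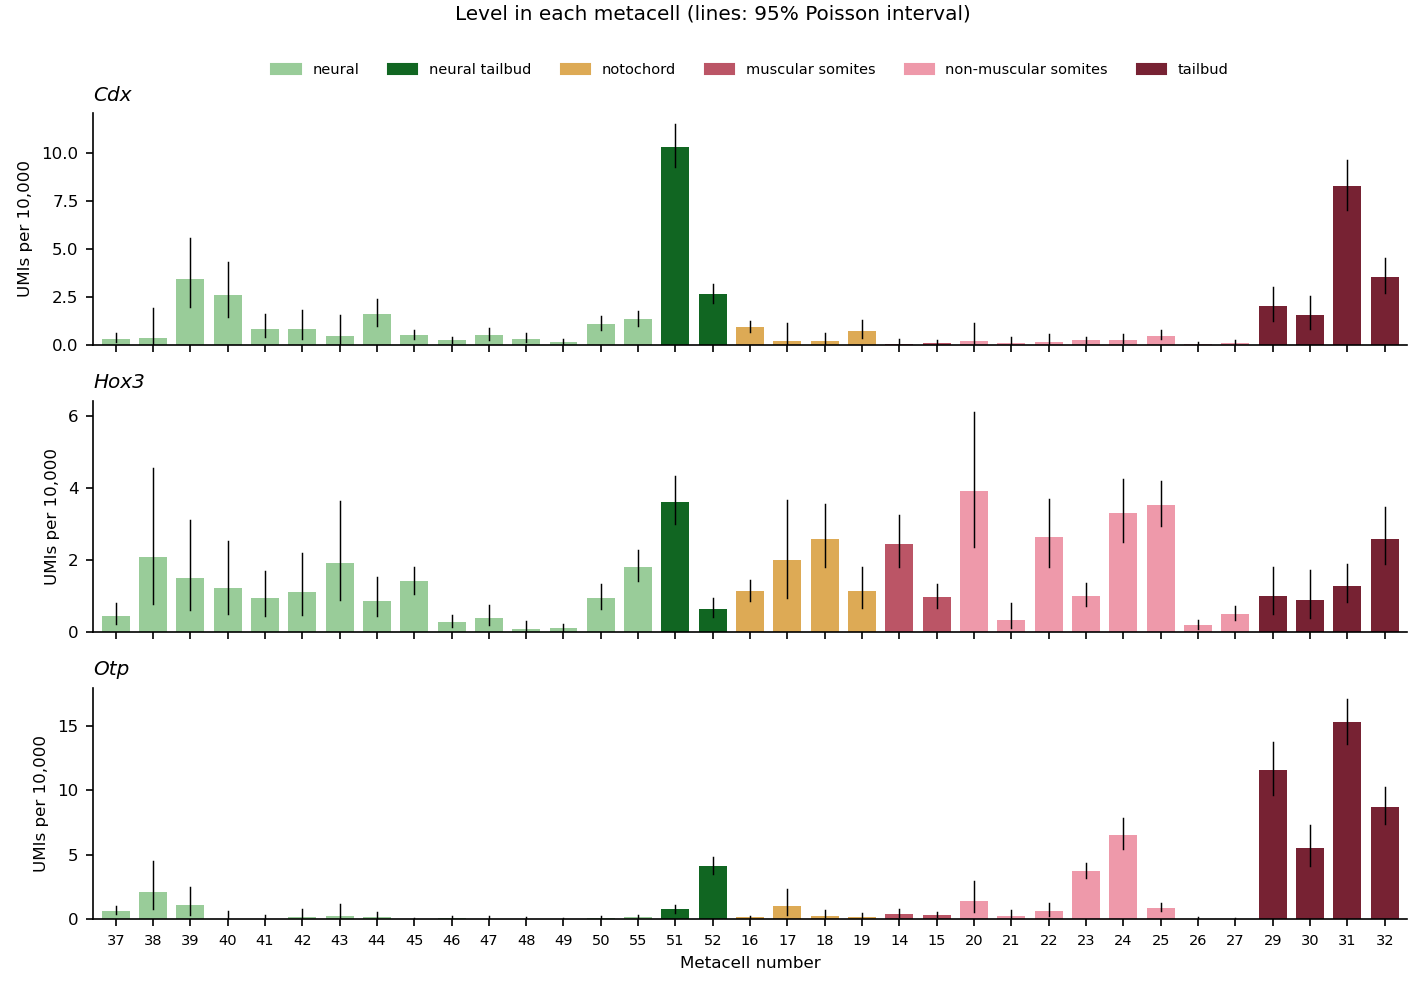
Level of *Cdx*, *Hox3* and *Otp* (y axes, UMIs per 10,000 UMIs) in each metacell of the neural, neural tailbud, notochord, muscular somite, non-muscular somite and tailbud types (x axis, metacell number), with 95% Poisson intervals as lines. *Cdx* and *Hox3* stand high in metacell 51 and *Otp* in metacell 52, and *Otp* also stands out in somite metacells 23 and 24 and in all 4 tailbud metacells.

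All 4 tailbud metacells had *Otp* above 5 UMIs per 10,000, but they differed in *Cdx*. Metacell 31 had the highest level of both, *Otp* at 15.3 (13.6 to 17.1) and *Cdx* at 8.27 (7.05 to 9.65), with *Hox3* at 1.28 (0.826 to 1.89). Metacell 29 had *Otp* at 11.6 (9.63 to 13.7), *Cdx* at 2.0 (1.25 to 3.03) and *Hox3* at 1.0 (0.50 to 1.79), and metacell 30 had *Otp* at 5.55 (4.14 to 7.30), *Cdx* at 1.52 (0.834 to 2.56) and *Hox3* at 0.871 (0.376 to 1.72). Metacell 32 had *Otp* at 8.74 (7.41 to 10.2), *Cdx* at 3.51 (2.68 to 4.51) and *Hox3* at 2.59 (1.89 to 3.46), the only *Hox3* interval above the level of the type. It was also the one with *Foxaa*, a forkhead gene of notochord and endoderm, at 5.64, where the other 3 had at most 0.871. Metacells 31 and 32 were deeper, with medians of 2965.5 and 2820 UMIs per cell against 1161 and 1032 in metacells 29 and 30, and the part of depth in these differences was not tested. *Nanos* (7.05), *Vasa* (22.7) and the zf-RING protein gene (6.95) were also highest in metacell 31 among the 4, and *Wnt1* was highest in metacell 32 at 34.5.

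In the non-muscular somites *Hox3* and *Otp* marked partly different metacells. *Hox3* was at 3.91 UMIs per 10,000 in metacell 20 (2.36 to 6.11), 3.51 in metacell 25 (2.93 to 4.17), 3.28 in metacell 24 (2.50 to 4.24) and 2.63 in metacell 22 (1.81 to 3.69), and at 0.178 in metacell 26 (0.0853 to 0.327), 0.337 in metacell 21 (0.109 to 0.787) and 0.498 in metacell 27 (0.331 to 0.720). Metacell 23 lay between at 1.0 (0.717 to 1.36). The somite metacells therefore fell on both sides of the level of their type, 4 above and 3 below. *Otp* was at 6.57 in metacell 24 (5.44 to 7.86) and 3.73 in metacell 23 (3.16 to 4.37), and at most 1.44 in the other 6. These 2 metacells held 271 of the 324 *Otp* UMIs of the type.

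Metacells 20 and 25, summed, had 2.1 times the *Hox3* (1.62 to 2.73) and 0.207 times the *Otp* (0.144 to 0.290) of metacells 23 and 24. The *Otp* ratio was 0.367 on odd-numbered and 0.101 on even-numbered plates. Set against metacell 26, which had 10 UMIs of *Hox3* and 2 of *Otp*, *Hox3* was 20.004 times as high in metacells 20 and 25 (10.6 to 42.6) and 9.54 times in metacells 23 and 24 (4.98 to 20.5), and *Otp* in the latter was 129 times as high (35.4 to 1072). The *Hox3* ratios were 8.87 (4.30 to 20.6) and 4.77 (2.29 to 11.2) on odd-numbered plates and 109 (19.1 to 4341) and 50.9 (8.78 to 2045) on even-numbered ones, so their size is not well determined. *Cdx* stayed low in every somite metacell, at most 0.470 (0.274 to 0.752) in metacell 25, where 10 of its 17 UMIs came from 1 cell.

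Across the 8 non-muscular somite metacells *Otp* went with *Wnt1* (Pearson r = 0.99, Spearman rho = 0.98), and *Hox3* with *Brachyury2*, a T-box gene of the early mesoderm (0.95 and 0.86). *Hox3* also had a Spearman rho of -0.62 with the total UMIs of these metacells, with metacell 26 the deepest at a median of 5033 UMIs per cell and metacell 20 the shallowest at 820.5, and the part of depth was not tested. In muscular somites, identified by *MLC-alk* at 27.5 UMIs per 10,000, metacell 14 had *Hox3* at 2.44 (1.81 to 3.23) and metacell 15 at 0.957 (0.674 to 1.32), a ratio of 2.56 (1.63 to 4.03) that was 4.41 on odd-numbered plates and 1.86 on even-numbered ones. *Brachyury2* was 3.47 times as high in metacell 14 as well. The median depth was 1576 UMIs per cell in metacell 14 and 4977 in metacell 15.

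In the notochord *Hox3* was detected in all 4 metacells, from 1.12 to 2.57 UMIs per 10,000, with metacell 18 above the level of the type (1.81 to 3.54). *Cdx* was at 0.920 (0.681 to 1.22) in metacell 16 and 0.727 (0.363 to 1.30) in metacell 19. It was at 0.198 (0.00503 to 1.11) in metacell 17 and 0.208 (0.0429 to 0.608) in metacell 18. Only the intervals of metacells 16 and 18 did not overlap, so *Cdx* did not clearly divide the 4. *Otp* had 18 UMIs in the whole type.

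Outside the tailbud the neural metacells had *Cdx* from 0.136 to 3.44 UMIs per 10,000. Metacells 39 and 40 were highest, at 3.44 (1.97 to 5.59, 16 UMIs) and 2.62 (1.46 to 4.31, 15 UMIs), and metacell 55, in which *Nkx2.1* was at 7.93 against at most 3.97 in any other neural metacell, had *Cdx* at 1.33 (0.990 to 1.75) and *Hox3* at 1.80 (1.4 to 2.28). *Hox3* was also above the level of the type in metacell 45, at 1.4 (1.06 to 1.81), which had the *GBX1*-named gene at 15.9 and *Cdx* at 0.482 (0.295 to 0.745). Metacells 48 and 49 had *Hox3* below 0.1, with 2 and 5 UMIs. Over the 15 neural metacells *Hox3* ran from 0.0865 to 2.09 UMIs per 10,000. Only 44 *Otp* UMIs were counted in the 1243 neural cells, and 70.5% of them came from 10 cells. *Otp* was uneven over the neural metacells as well, from 0 to 2.09 UMIs per 10,000 with a median of 0.0970. The intervals of 3 metacells lay above the *Otp* level of the type, and the most in any of the 15 was 16 UMIs. The hypothalamo-prethalamic metacells 35, 36 and 53 had 10 *Cdx*, 6 *Hox3* and 7 *Otp* UMIs in all.

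One further metacell carried all 3 genes. Metacell 56, which makes up the epidermal/neural 1 type, had *Cdx* at 0.978 (0.765 to 1.23), *Hox3* at 0.503 (0.354 to 0.693) and *Otp* at 0.842 (0.646 to 1.08), in 28, 20 and 18 of its 108 cells. It was the deepest type, with a median of 6757.5 UMIs per cell, and it held epidermal *Tfap2* at 1.63 and *Klf1/2/4* at 3.45 together with *Wnt1* at 2.54 and *Foxaa* at 0.910. The sort gated out doublets by forward scatter, no further search for wells with more than 1 cell was made, and their part in this metacell was not tested.

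Within single cells of the neural tailbud *Hox3* was found more often in cells with *Cdx* than in cells without. Of the 136 cells with a *Cdx* UMI 45.6% had *Hox3* (37.0 to 54.3), against 8.0% of the 75 cells without (2.99 to 16.6), and the cells with *Cdx* were the shallower ones, with a median of 3069 against 3542 UMIs. *Otp* had the opposite relation, being found in 22.1% of the cells with *Cdx* (15.4 to 29.97) and 40.0% of those without (28.9 to 51.96). With each cell thinned to 2000 UMIs and 23 cells left out, *Hox3* was in 38.8% of the cells with *Cdx* (29.4 to 48.9) and 11.8% of those without (5.79 to 20.6), and *Otp* in 21.4% (13.9 to 30.5) and 32.9% (23.1 to 44.0), whose intervals overlap. At 500 UMIs *Hox3* was in 10.9% (4.11 to 22.2) and 8.97% (4.99 to 14.6), so at that depth the relation of *Cdx* and *Hox3* was not detectable.

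The metacells were then read one by one. In metacell 51 *Hox3* was in 55.3% of the 94 cells with *Cdx* (44.7 to 65.6) and 14.3% of the 14 without (1.78 to 42.8), and in metacell 52 in 23.8% of 42 (12.1 to 39.5) and 6.56% of 61 (1.82 to 15.9), where the intervals overlapped. The cells with *Cdx* in metacell 51 were the deeper ones, with a median of 2883.5 against 2215 UMIs, and the part of depth in that difference was not tested. *Otp* was in 12 of 94 cells with *Cdx* against 3 of 14 without in metacell 51 and in 18 of 42 against 27 of 61 in metacell 52, so the difference in *Otp* over the whole type was not detectable within either. Of the 108 cells of metacell 51, 6 held UMIs of all 3 genes, 53 of 2 genes and 10 of none.

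In the tailbud, by contrast, *Otp* was in most cells with either gene. It was found in 75.5% of the 102 cells with *Cdx* (66.0 to 83.5) and 55.9% of the 177 without (48.3 to 63.4), but the former were deeper, with a median of 2514 against 1297 UMIs. At 2000 UMIs per cell, with 172 of the 279 cells left out, the shares were 79.2% (65.9 to 89.2) and 68.5% (54.4 to 80.5), whose intervals overlapped. *Hox3* was in 30.4% of the tailbud cells with *Cdx* (21.7 to 40.3) and 11.3% of those without (7.04 to 16.9), and at 2000 UMIs in 30.2% (18.3 to 44.3) and 16.7% (7.92 to 29.3), again overlapping. In metacell 31, 13 of 64 cells held all 3 genes and 2 held none.

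In neural cells *Hox3* was in 29.2% of the 130 cells with *Cdx* (21.6 to 37.8) and 8.27% of the 1113 without (6.72 to 10.04), at like depths of 2269.5 and 2411 UMIs, and at 2000 UMIs per cell in 30.2% (18.3 to 44.3) and 6.96% (5.14 to 9.17). In non-muscular somites *Otp* was in 30.5% of the 151 cells with *Hox3* (23.2 to 38.5) and 15.9% of the 515 without (12.9 to 19.4). The cells with *Hox3* were the deeper ones, with a median of 3414 against 2869 UMIs. At 2000 UMIs per cell the shares were 28.9% (19.5 to 39.9) and 15.6% (12.1 to 19.7), whose intervals overlapped. Within metacell 24 (17 of 30 against 21 of 32) and metacell 25 (11 of 48 against 10 of 41) the shares were no higher with *Hox3*. In posterior epidermis *Hox3* was in 2.78% of the cells with *Cdx* (1.73 to 4.22) and 1.28% of those without (1.0 to 1.6), and the cells with *Cdx* were the deeper ones (1701 against 1206 UMIs). Thinned to 500 UMIs the shares were 1.29% (0.354 to 3.28) and 0.615% (0.429 to 0.855). At 2000 UMIs, with 5212 cells left out, they were 3.29% (1.43 to 6.38) and 1.19% (0.636 to 2.03). The intervals overlapped at both depths.

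**Figure D5:**
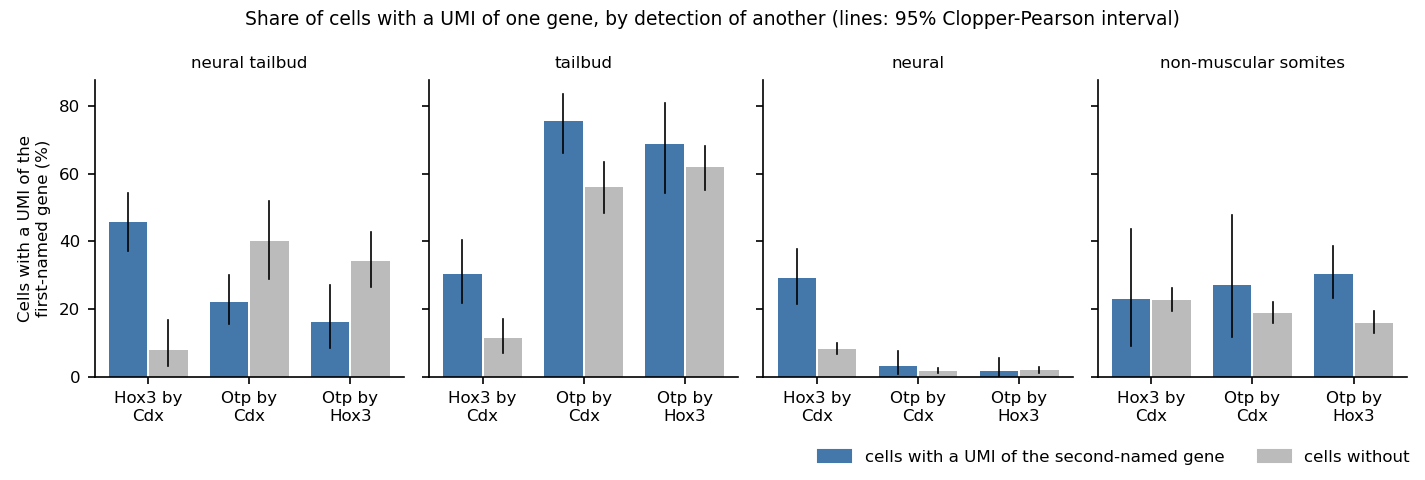
Share of cells (y axis, %) with a UMI of the first-named gene among cells with (blue) and without (grey) a UMI of the second-named gene, in 4 cell types, unthinned, with 95% Clopper-Pearson intervals as lines. *Hox3* is more frequent among cells with *Cdx* in neural tailbud (45.6% against 8.0%) and neural cells (29.2% against 8.27%), and *Otp* is less frequent among neural tailbud cells with *Cdx* (22.1% against 40.0%).

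Profiles over all metacells were compared with those of 9622 genes with at least 200 UMIs, as the Pearson r of log2(UMIs per 10,000 + 0.1). The gene most like *Cdx* was BLAG17000606 (r = 0.70), for which no name was given in the sources used here, followed by the *EVX2*-named gene (r = 0.64). The gene most like *Hox3* was BLAG01000406 (r = 0.73), also without a name, and *Nanos*, an RNA-binding regulator of the germline, ranked 4 (r = 0.68). The gene most like *Otp* was *Wnt1* (r = 0.67), and *Nanos* ranked 5 (r = 0.60). Among themselves the genes were less alike, with r = 0.46 for *Hox3* and *Otp*, 0.23 for *Cdx* and *Hox3* and 0.23 for *Cdx* and *Otp*. At the other end of the ranking, the *Cdx* profile had r = -0.46 with *Fzd5/8*, a Wnt receptor gene ranked 9621, and r = -0.44 with *Fgfrl*, but other genes of the anterior list were less far from it, such as *Fezf* (r = -0.09). All these values are across metacells that differ in depth and share plates.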

How the data were processed

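The sources describe 2 scRNA-seq samples and 4 ATAC-seq samples, and the latter were not analysed here. The authors mapped MARS-seq reads with STAR, filtered UMIs for sequencing and amplification errors, and deposited UMI counts per gene and cell, not normalized, after removing empty wells and 1 shallow metacell. They also deposited the metacell (176 in all) and cell type of each cell, and fold changes of each metacell over the median of metacells, which are a comparison of their own and were not used. No column of per-sample values was left unmapped (0), but cells are not assigned to samples, so all were pooled. Total UMIs per plate ran from 116811 to 1371070 and median UMIs per cell by plate from 465 to 3316.

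The members and gene lists were chosen with earlier results of these data known. Named were the 3 members, the genes of the posterior, Hox-linked and anterior lists, and the 5 genes most like each member, of which genes without a name are given only where they rank first. Some genes of the Hox-linked list are not reported here. Other genes appear as cell type markers. Levels are summed UMIs per 10,000 with exact Poisson 95% intervals, shares have Clopper-Pearson intervals, and folds have exact conditional binomial intervals. A count of 0 was given a limit of 3 UMIs. Thinning was random without replacement (seed 1). Cells with more than 4 times their type's median depth (286) were kept, and no doublet caller was run. Alternatives were the mean over cells, depth limits, plates of odd or even order, thinning, other UMI minimums and folds, and other measures of likeness. Thinning to 2000 UMIs and odd and even plates for metacell pairs, and leaving out the metacell with most UMIs of a gene, were added after seeing the data. Calls were tested on simulated data. The tools were Python 3.11.15, numpy 2.4.6, scipy 1.17.1, pandas 2.3.3 and matplotlib 3.10.9.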

Additional observations from a re-analysis of the deposited data

How the results depend on the processing

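Of the 54 alternative values of the 9 folds, 41 lay inside the counting interval of the fold over all cells, 13 outside it, and none of the 8 folds above 1 by their interval crossed 1 under these. Leaving out the metacell with most UMIs of the gene, chosen after seeing the data, did turn 1 of them, *Hox3* in neural tailbud, to 0.952. It gave 4.53 for *Cdx* and 5.97 for *Otp* in neural tailbud and 8.99 for *Cdx*, 0.804 for *Hox3* and 9.38 for *Otp* in tailbud. For *Cdx* in posterior over anterior epidermis (3.84) the fold was 3.18 on odd-numbered plates, 4.86 on even-numbered plates and 5.52 after thinning to 500 UMIs. For *Otp* in the same comparison (2.44) the mean over cells gave 1.69. In neural tailbud over other neural plate, the mean over cells gave 2.36 and thinning 2.12 for *Hox3* (2.99), and thinning gave 14.2 for *Otp* (20.3). In tailbud over other mesoderm, *Cdx* (15.8) was 12.1 by the mean over cells, 21.8 on odd-numbered plates and 11.9 after thinning, *Otp* (11.8) was 10.1 by the mean over cells and 8.55 after thinning, and *Hox3* (1.13) was 0.847 by the mean over cells. The cause of these shifts was not tested.

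Counts of genes at a fold of 2 or more depend on the minimum by construction. With at least 50 UMIs, at least 1 UMI or a fold of 1.5 they were 576, 5995 and 3890 in epidermis (1741), 421, 3361 and 1976 in neural plate (867), and 816, 5225 and 2967 in mesoderm (1560). The alternative minimum for the deposited fold changes was not run, since these were not used. Of the 5 genes most like each member, the same genes were found over cell types for 2, 2 and 0 (*Cdx*, *Hox3* and *Otp*), and by Spearman correlation for 4, 3 and 1. No paired analysis was possible because the cells are not assigned to the labelled replicates, and the comparisons within plates pair technical batches only. Types with few UMIs of a gene, such as *Hox3* in Di-Mesencephalic cells, are limited by depth.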
